A study of Mus musculus with 27 samples.

Results

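The 10 genes described here were chosen by name: E2f1, Ccne1, Ccne2, Rrm1, Rrm2, Tyms, Tk1, Uhrf1, Slbp and Chaf1b, of 18193 genes measured in all. They were read from 24 probe sets that carry 1 of these symbols, of which 18 had a mean above the background level of 48.3 and 6 had a mean below it. A further probe set that carries 1 of these symbols together with another symbol was left out. RNA came from mouse embryonic fibroblasts of 3 lines, each with 3 arrays per group and 27 arrays in all. The lines were one labelled R (line R), which the descriptions call a knockout with PKBalpha reconstituted, the PKBalpha knockout, and a wild-type line. Each was taken untreated and 4 h and 24 h after gamma irradiation with 10 Gy. All cells were female, at passage 45, and had been cultured for 24 h before irradiation. PKBalpha is the kinase that Akt1 encodes. Each genotype was a single line, so replicates measure variation inside that line alone, and genotype and line cannot be told apart. The duration of culture of the untreated cells is not stated, so irradiation and time in culture cannot be told apart.

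E2F1 is a transcription factor that the retinoblastoma protein holds inactive in early G1, and its release switches on genes of DNA replication. Among those genes are the E cyclins, Ccne1 and Ccne2, which activate CDK2 at entry into S phase. Rrm1 and Rrm2 encode the large and small subunits of ribonucleotide reductase, Tyms encodes thymidylate synthase and Tk1 encodes the cytosolic thymidine kinase, and together these enzymes supply deoxynucleotides. Uhrf1 recruits the maintenance DNA methyltransferase to newly copied DNA, Slbp binds the stem-loop at the end of histone mRNAs, and Chaf1b is a subunit of chromatin assembly factor 1. In bulk RNA, fewer cells in S phase and less RNA per cell cannot be told apart.

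Promoter windows of RefSeq (GRCm38.p6, 250 bases before to 50 after a start of transcription) were found for 9 of the 10 genes, with a pair of windows for Uhrf1. Ccne2 is named only. The windows of Rrm2, Slbp and Uhrf1 are shown because Rrm2 and Uhrf1 passed the test in the most comparisons below and Rrm2 and Slbp followed the mean of the other genes most closely across the groups. Capitals mark TTTCCCGC, TTTCGCGC, TTTGCCGC or TTTGGCGC (E2F-type letters), TCCCGC (a shorter core) and CCAAT, each searched on both strands. Matches that overlap run together, as the core and CCAAT do in Slbp.
Rrm2, chr12:24708004-24708303, plus strand: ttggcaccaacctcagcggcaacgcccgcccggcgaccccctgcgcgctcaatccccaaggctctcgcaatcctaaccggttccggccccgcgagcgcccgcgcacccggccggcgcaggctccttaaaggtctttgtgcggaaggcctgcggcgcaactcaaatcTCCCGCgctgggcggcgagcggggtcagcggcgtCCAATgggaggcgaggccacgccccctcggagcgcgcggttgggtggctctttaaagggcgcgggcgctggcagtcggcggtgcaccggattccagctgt
Slbp, chr5:33652525-33652824, minus strand: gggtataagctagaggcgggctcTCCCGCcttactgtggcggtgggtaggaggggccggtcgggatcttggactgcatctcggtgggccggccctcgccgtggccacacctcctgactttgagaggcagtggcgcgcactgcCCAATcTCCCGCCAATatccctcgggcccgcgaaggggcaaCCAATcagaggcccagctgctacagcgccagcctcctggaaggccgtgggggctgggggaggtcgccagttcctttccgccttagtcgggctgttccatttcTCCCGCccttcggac
Uhrf1, chr17:56303087-56303386, plus strand: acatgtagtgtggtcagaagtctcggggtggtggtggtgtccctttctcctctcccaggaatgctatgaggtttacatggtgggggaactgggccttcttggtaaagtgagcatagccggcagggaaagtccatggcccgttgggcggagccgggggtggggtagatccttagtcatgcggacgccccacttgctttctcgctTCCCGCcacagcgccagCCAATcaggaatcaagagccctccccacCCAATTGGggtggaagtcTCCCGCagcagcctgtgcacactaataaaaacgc
Uhrf1, chr17:56304063-56304362, plus strand: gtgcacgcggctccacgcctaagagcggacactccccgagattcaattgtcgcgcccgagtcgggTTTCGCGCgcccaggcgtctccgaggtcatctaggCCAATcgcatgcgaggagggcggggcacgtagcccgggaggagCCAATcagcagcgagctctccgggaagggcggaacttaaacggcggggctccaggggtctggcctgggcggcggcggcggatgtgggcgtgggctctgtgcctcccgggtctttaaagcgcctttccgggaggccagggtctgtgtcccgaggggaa
The first search was for the E2F-type letters, which were in 1 of 10 windows of these genes, at 185 bases before the start in the Uhrf1 window at chr17:56304063-56304362, and in 2.26% of all 32851 windows. CCAAT was in 5 of 10 windows and in 37.4% of all windows. The core was searched after that first result and after the windows of these genes had been read. It was in 6 of 10 of them and in 20% of all windows, and because it was chosen from these windows the pair of shares is not a comparison. A match describes letters only, and no match says only that the letters are not in this window.

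The 3' to 5' ratios of the Gapdh and actin control probe sets set 5 arrays apart. They were replicates 1 (untreated) and 2 (24 h) in line R, replicate 2 (untreated) in the knockout, and replicates 2 (untreated) and 0 (4 h) in wild-type cells. Their Gapdh ratios (log2) lay between -0.187 and 0.16, whereas those of the remaining 22 arrays lay between -0.466 and -0.298. The actin ratios lay between 0.39 and 0.592 on these 5 arrays and between 0.128 and 0.292 on the 22. Several of the 10 genes moved with this property of the arrays. Rrm1 read from probe set 1448127_at was 1.22 to 2.44 lower (log2) on each of the 5 arrays than on the other arrays of the same group, and its intensities in wild-type cells were 8172, 7462 and 1831 untreated (replicates 0, 1 and 2) and 3839, 7807 and 10193 at 4 h. A second Rrm1 probe set, 1415878_at, was lower by 0.08 to 0.38 (log2) on the same arrays. Slbp read from 1460168_at and Tk1 were lower on all 5 arrays and Ccne2 on 4 of 5, with a median difference of -0.93 (log2) for Ccne2, whereas Ccne1 was higher on all 5. The second Slbp probe set above background, 1430058_at, was higher on all 5 arrays, by 0.21 to 1.09 (log2). Values or counts without these arrays are given beside many of the results below, but not beside each call. The part of this property in the results was not otherwise tested.

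**Figure D1:**
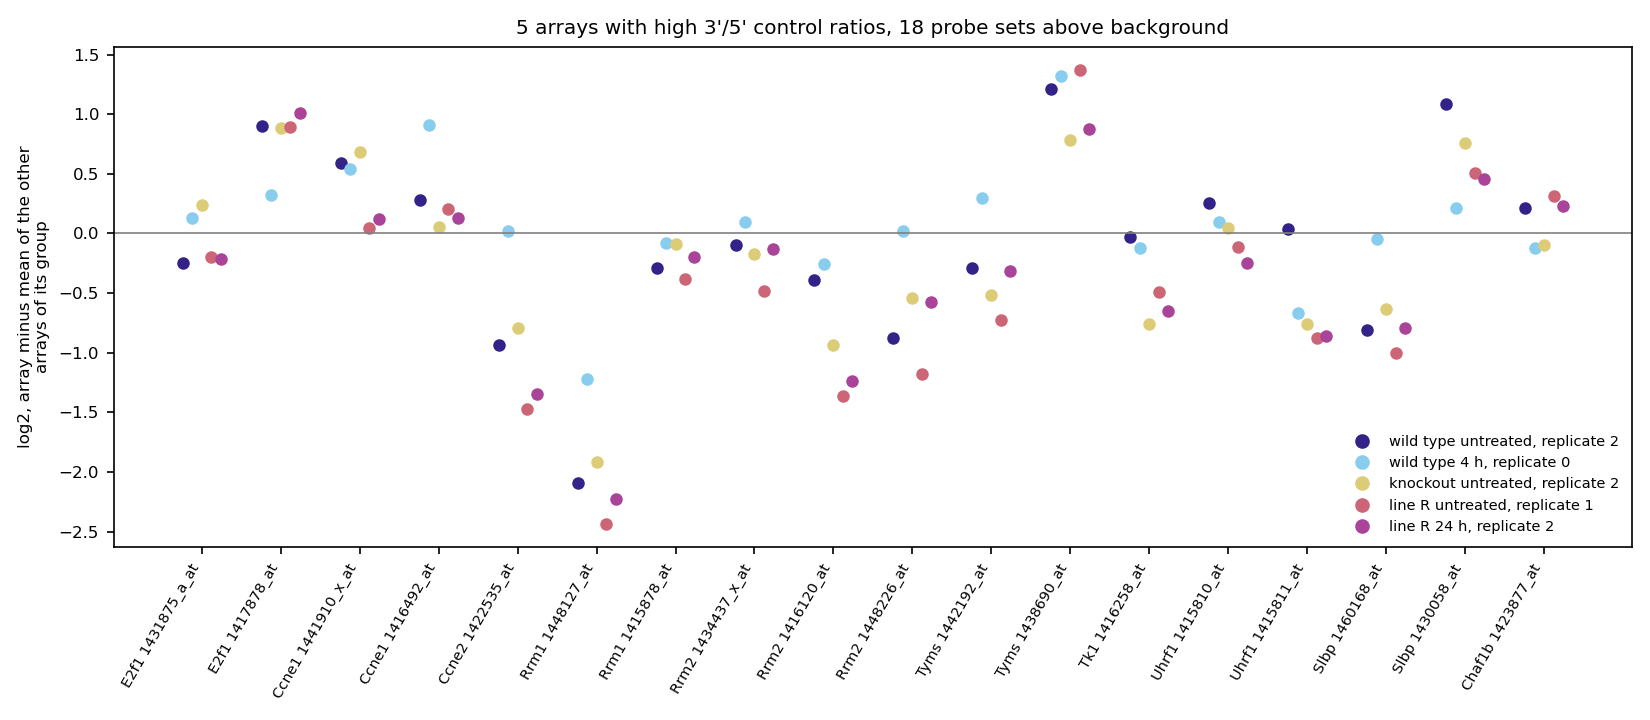
Each point is the log2 intensity of 1 of the 5 arrays minus the mean of the other arrays of its group, for the 18 probe sets above background, with 1 colour per array. Rrm1 1448127_at lies between -2.44 and -1.22 on all 5 arrays, while Rrm1 1415878_at lies between -0.38 and -0.08.

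The targeted gene and the cell type were read in the same arrays. Akt1 averaged 20.9 in untreated cells of line R, 14.6 in untreated knockout cells and 3533 in untreated wild-type cells, so both lines lay below the background level of 48.3. On this probe set the line labelled R did not show Akt1 RNA at the wild-type level although it is labelled as reconstituted, and whether the probe set lies in the reconstituted transcript is not stated. All 10 fibroblast markers were above background in each line. Of 5 endothelial markers, 0 were above background in line R, 0 in the knockout and 1 in wild-type cells, and their summed intensity ran from 53.9 to 118 in line R, from 43.1 to 136 in the knockout and from 230 to 639 in wild-type cells, and their part in the differences between lines was not tested. Of 5 epithelial markers, 2 were above background in line R, 2 in the knockout and 3 in wild-type cells, and of 4 leukocyte markers, 0, 1 and 2 were, in the same order of lines. The p53 target Cdkn1a averaged 2132 in wild-type cells at 4 h and 592 in untreated wild-type cells, a log2 difference of 1.85 ± 0.39 (SE, adjusted p = 0.0149, limma). The same log2 difference was 0.35 ± 0.39 in line R (adjusted p = 0.728) and -0.01 ± 0.39 in the knockout (adjusted p = 0.995). The difference in response from wild type was not called in line R (-1.495, adjusted p = 0.658) or the knockout (-1.857, adjusted p = 0.542). For Mdm2 the log2 difference at 4 h was 0.45 in line R, 0.57 in the knockout and 1.36 ± 0.53 in wild-type cells (adjusted p = 0.177). Ccng1 gave -0.03, -0.11 and 0.82 ± 0.22 (adjusted p = 0.0454). Without the 5 arrays the wild-type adjusted p was 0.00973 and 0.00163.

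At 4 h after irradiation, Rrm2, Ccne2, Tyms and Uhrf1 rose in wild-type cells, by 1.13, 1.77, 0.88 and 0.62 on the log2 scale against untreated cells. No other of the 10 genes passed the test there, and none passed it in the knockout or in line R. Most of them nevertheless lay higher at 4 h in each line, with 9 of 10 positive in line R, 10 of 10 in the knockout and 9 of 10 in wild-type cells. The median log2 difference of the 10 genes was 0.45 in line R, 0.44 in the knockout and 0.62 in wild-type cells, against medians over all genes of -0.03, -0.03 and -0.01. The medians of the 10 genes without the 5 arrays were 0.30 in line R, 0.30 in the knockout and 0.60 in wild-type cells. A gene was called at an adjusted p below 0.05 over all 18193 genes (limma, Benjamini-Hochberg). The share of all genes called was 0.978% in line R, 0.368% in the knockout and 3.25% in wild-type cells, of which 1.51% were higher, so the 4 of 10 genes called in wild-type cells stand beside a background of 1.51%. At an unadjusted p below 0.05 there were 5 genes in line R, 4 in the knockout and 7 in wild-type cells, beside 14.7%, 13% and 17% of all genes. The difference between lines in this response is tested further on.

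**Figure D2:**
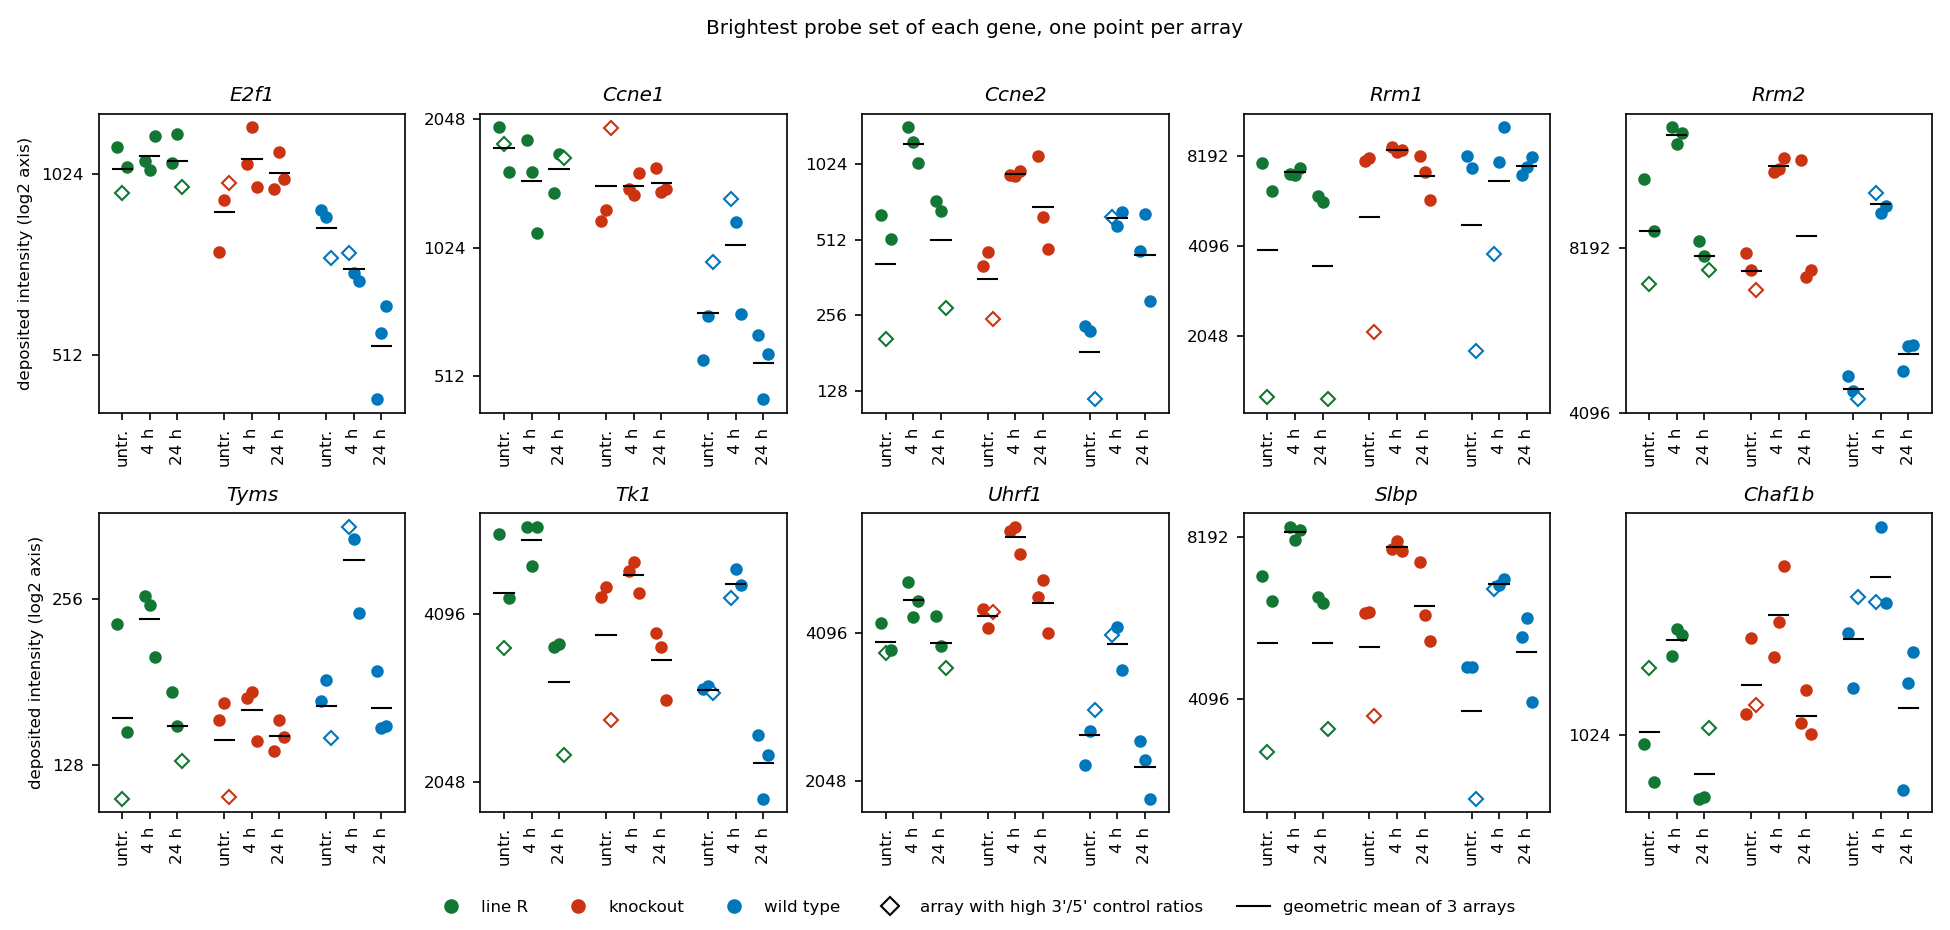
Deposited intensity (log2 axis) of the brightest probe set of each gene, with 1 point per array, horizontal bars for the geometric mean of 3 arrays, and open diamonds for the 5 arrays with high control ratios. Rrm2 is highest at 4 h in each line, and the lowest group is untreated wild-type cells at a mean of 4530.

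Rrm2 had the smallest adjusted p of the 10 genes at 4 h. In line R, Rrm2 had intensities of 10984, 7046 and 8833 in untreated cells, 13642, 12704 and 13304 at 4 h and 8438, 7920 and 7473 at 24 h. In the knockout, Rrm2 had intensities of 8024, 7468 and 6864 in untreated cells, 11305, 11463 and 11998 at 4 h and 11905, 7274 and 7477 at 24 h. In wild-type cells, Rrm2 had intensities of 4778, 4486 and 4336 in untreated cells, 10355, 9531 and 9810 at 4 h and 4877, 5425 and 5459 at 24 h. All 3 arrays at 4 h lay above all 3 untreated arrays in each of the lines. Line R averaged 13211 at 4 h and 8809 untreated (log2 0.58 ± 0.16, SE, adjusted p = 0.0835, limma, n = 3 each). The knockout averaged 11585 at 4 h and 7437 untreated (log2 0.64 ± 0.16, adjusted p = 0.081). Wild-type cells averaged 9893 at 4 h and 4530 untreated, which is 2.18-fold (log2 1.13 ± 0.16, adjusted p = 0.00159), the only one of these differences past the threshold. Both other Rrm2 probe sets gave positive differences in wild-type cells too, at 0.95 ± 0.36 for 1416120_at and 1.46 ± 0.30 for 1448226_at. The first was lower on all 5 arrays set apart and the second on 4 of 5. Without those arrays the wild-type averages at 4 h and untreated were 6678 and 3557 for 1416120_at and 6154 and 2744 for 1448226_at. On the brightest probe set the wild-type difference without the 5 arrays was 1.06 ± 0.18 (adjusted p = 0.0126). Leaving out single wild-type arrays there gave adjusted p values from 0.00454 to 0.00871.

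Ccne2, the second of the E cyclins, had the widest range of the 10 genes, 6.71-fold between its highest group (line R at 4 h) and its lowest (untreated wild-type cells). In line R, Ccne2 had intensities of 641, 207 and 516 in untreated cells, 1429, 1250 and 1032 at 4 h and 732, 663 and 274 at 24 h. In the knockout, Ccne2 had intensities of 403, 459 and 249 in untreated cells, 925, 919 and 962 at 4 h and 1101, 629.8 and 469 at 24 h. In wild-type cells, Ccne2 had intensities of 232, 222 and 119 in untreated cells, 629, 581 and 658 at 4 h and 463, 648 and 291 at 24 h. The 4 h arrays lay above the untreated arrays in every line, with no overlap. The log2 difference was 1.58 ± 0.43 in line R (adjusted p = 0.0834) and 1.38 ± 0.43 in the knockout (adjusted p = 0.162). Wild-type cells averaged 622 at 4 h and 183 untreated, which is 3.4-fold (log2 1.77 ± 0.43, adjusted p = 0.0302). Ccne2 was among the genes that were lower on the 5 arrays, and without them the wild-type difference was 1.45 ± 0.35 (adjusted p = 0.0496). The difference without the 5 arrays was 1.09 ± 0.32 in line R (adjusted p = 0.128) and 1.12 ± 0.32 in the knockout (adjusted p = 0.0987). Leaving out single wild-type arrays gave adjusted p values from 0.0462 to 0.131, above 0.05 for 5 of 6 arrays (all but untreated replicate 0).

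Ccne1, the first E cyclin, did not pass the test at 4 h in any line. In line R, Ccne1 had intensities of 1956, 1786 and 1537 in untreated cells, 1833, 1539 and 1110 at 4 h and 1373, 1697 and 1657 at 24 h. In the knockout, Ccne1 had intensities of 1184, 1257 and 1954 in untreated cells, 1401, 1360 and 1528 at 4 h and 1573, 1380 and 1401 at 24 h. In wild-type cells, Ccne1 had intensities of 558, 709 and 948 in untreated cells, 1335, 1174 and 716 at 4 h and 639, 452 and 576 at 24 h. On this probe set, 1441910_x_at, the arrays at 4 h and untreated overlapped in all 3 lines. The log2 difference was -0.26 ± 0.25 in line R (adjusted p = 0.68), 0.00085 ± 0.25 in the knockout (adjusted p = 0.999) and 0.53 ± 0.25 in wild-type cells (adjusted p = 0.279). The second Ccne1 probe set, 1416492_at, averaged 736 at 4 h and 580 untreated in the knockout, with no overlap. Its averages were 689 and 607 in line R and 418 and 304 in wild-type cells, with overlapping arrays in both. E2f1, which encodes the transcription factor itself, overlapped between 4 h and untreated cells in every line. In line R, E2f1 had intensities of 1133, 949.9 and 1049 in untreated cells, 1076, 1037 and 1181 at 4 h and 1066, 1193 and 972 at 24 h. In the knockout, E2f1 had intensities of 758, 924 and 989 in untreated cells, 1062, 1221 and 973 at 4 h and 966, 1111 and 1004 at 24 h. In wild-type cells, E2f1 had intensities of 891, 867 and 741 in untreated cells, 755, 699 and 678 at 4 h and 431, 555 and 617 at 24 h. On this probe set, 1431875_a_at, its log2 difference at 4 h was 0.07 ± 0.14 in line R (adjusted p = 0.866), 0.29 ± 0.14 in the knockout (adjusted p = 0.405) and -0.23 ± 0.14 in wild-type cells (adjusted p = 0.461). The other E2f1 probe set above background, 1417878_at, had a higher average at 4 h in each line, with overlapping arrays. Its averages at 4 h and untreated were 651 and 622 in line R, 669.5 and 519 in the knockout and 478 and 421 in wild-type cells. It was higher on all 5 arrays set apart, by 0.33 to 1.01 (log2). The overlap in line R and in the knockout came from such arrays alone, untreated replicates 1 (938) and 2 (780).

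Of the other enzymes of deoxynucleotide supply, Tyms passed the test in wild-type cells. Its brightest probe set was dim. In line R, Tyms had intensities of 230.3, 111 and 147 in untreated cells, 259, 249.7 and 201 at 4 h and 173, 151 and 130.2 at 24 h. In the knockout, Tyms had intensities of 155, 166 and 112 in untreated cells, 169, 174 and 141 at 4 h and 136, 154 and 144 at 24 h. In wild-type cells, Tyms had intensities of 167, 183 and 143 in untreated cells, 346, 329 and 241 at 4 h and 189.6, 149 and 150.3 at 24 h. Wild-type cells averaged 301 at 4 h and 164 untreated, with no overlap (log2 0.88 ± 0.22, adjusted p = 0.0332). Of the 3 lines, the wild type alone showed no overlap between these groups for Tyms. The call did not hold without the 5 arrays (log2 0.69 ± 0.21, adjusted p = 0.111) and held in 1 of 6 fits that left out a single wild-type array, the one without replicate 2 at 4 h, with adjusted p values from 0.0246 to 0.143. The mean of all 4 Tyms probe sets, a pair of which had a mean under background, gave -0.24 (adjusted p = 0.855). The other Tyms probe set above background, 1438690_at, averaged 167 at 4 h and 116 untreated in wild-type cells, with overlapping arrays.

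Tk1, the thymidine kinase, lay higher at 4 h on all wild-type arrays without passing the test. In line R, Tk1 had intensities of 5693, 3549 and 4371 in untreated cells, 5851, 4984 and 5855 at 4 h and 3564, 3607 and 2287 at 24 h. In the knockout, Tk1 had intensities of 4377, 4573 and 2640 in untreated cells, 4884, 5057 and 4454 at 4 h and 3776, 3572 and 2875 at 24 h. In wild-type cells, Tk1 had intensities of 2997, 3035 and 2952 in untreated cells, 4365, 4913 and 4614 at 4 h and 2489, 1912 and 2290 at 24 h. Its log2 difference was 0.32 ± 0.21 in line R (adjusted p = 0.516), 0.35 ± 0.21 in the knockout (adjusted p = 0.504) and 0.63 ± 0.21 in wild-type cells (adjusted p = 0.109). It was, without the 5 arrays, 0.15 ± 0.15 in line R, 0.10 ± 0.15 in the knockout and 0.66 ± 0.16 in wild-type cells (adjusted p = 0.0503). For Rrm1, the brightest probe set gave log2 differences of 0.87 in line R, 0.75 in the knockout and 0.48 in wild-type cells. The standard errors were 0.69 in each line, with no call. Without the 5 arrays the differences were 0.06, 0.11 and 0.19 in the same order of lines. The second Rrm1 probe set is therefore shown as well. In line R, Rrm1 had intensities of 5537, 3783 and 4365 in untreated cells, 6322, 5616 and 6103 at 4 h and 4293, 4223 and 3716 at 24 h. In the knockout, Rrm1 had intensities of 5433, 5334 and 5068 in untreated cells, 6776, 6969 and 6767 at 4 h and 6425, 5453 and 5328 at 24 h. In wild-type cells, Rrm1 had intensities of 5492, 5516 and 4515 in untreated cells, 6451, 6697 and 6940 at 4 h and 5620, 5729 and 5111 at 24 h. Those values are from the second probe set, 1415878_at, which was lower on the 5 arrays by 0.08 to 0.38 (log2). It gave log2 differences at 4 h of 0.41 ± 0.14 in line R (adjusted p = 0.273 over all probe sets), 0.37 ± 0.14 in the knockout (adjusted p = 0.368) and 0.38 ± 0.14 in wild-type cells (adjusted p = 0.241). Without the 5 arrays its averages at 4 h and untreated were 6006 and 4916 in line R, 6837 and 5383 in the knockout and 6817 and 5504 in wild-type cells.

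Among the genes of chromatin copying, Uhrf1 passed the test in wild-type cells at 4 h. In line R, Uhrf1 had intensities of 4291, 3721 and 3780 in untreated cells, 5196, 4410 and 4749 at 4 h and 4429, 3845 and 3475 at 24 h. In the knockout, Uhrf1 had intensities of 4584, 4194 and 4526 in untreated cells, 6608, 6736 and 5931 at 4 h and 4841, 5259 and 4089 at 24 h. In wild-type cells, Uhrf1 had intensities of 2202, 2585 and 2854 in untreated cells, 4060, 4205 and 3438 at 4 h and 2462, 2260 and 1882 at 24 h. The 4 h arrays lay above the untreated ones in all 3 lines. Wild-type cells averaged 3886 at 4 h and 2533 untreated, which is 1.53-fold (log2 0.62 ± 0.14, adjusted p = 0.02). The log2 difference was 0.28 ± 0.14 in line R (adjusted p = 0.351) and 0.53 ± 0.14 in the knockout (adjusted p = 0.0863). The second Uhrf1 probe set, 1415811_at, gave 0.23 ± 0.31 in wild-type cells (adjusted p = 0.837 over all probe sets) and 0.47 ± 0.26 without the 5 arrays. When the 5 arrays were left out the wild-type adjusted p of the first was 0.0503. Leaving out 1 wild-type array gave 0.0178 to 0.0842, above 0.05 without replicate 0 or 1 of either group.

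Slbp and Chaf1b did not pass the test at 4 h. In line R, Slbp had intensities of 6918, 3273 and 6233 in untreated cells, 8540, 8073 and 8419 at 4 h and 6326, 6161 and 3610 at 24 h. In the knockout, Slbp had intensities of 5906, 5948 and 3820 in untreated cells, 7754, 8054 and 7694 at 4 h and 7341, 5865 and 5259 at 24 h. In wild-type cells, Slbp had intensities of 4699, 4708 and 2683 in untreated cells, 6542, 6667 and 6839 at 4 h and 5334, 5801 and 4051 at 24 h. On this probe set, 1460168_at, all Slbp arrays at 4 h lay above the untreated ones in every line, with log2 differences of 0.68 ± 0.28 in line R (adjusted p = 0.249), 0.61 ± 0.28 in the knockout (adjusted p = 0.352) and 0.78 ± 0.28 in wild-type cells (adjusted p = 0.136). These were, without the 5 arrays, 0.35 ± 0.14, 0.40 ± 0.14 and 0.52 ± 0.16 in the same order of lines. The other Slbp probe set above background, 1430058_at, gave 0.29 ± 0.30 in line R, 0.29 ± 0.30 in the knockout and 0.06 ± 0.30 in wild-type cells, with overlapping arrays in each line, and 0.46 ± 0.24, 0.54 ± 0.24 and 0.35 ± 0.26 without the 5 arrays. In line R, Chaf1b had intensities of 1003, 1195 and 918 in untreated cells, 1229, 1308 and 1289 at 4 h and 885, 888 and 1042 at 24 h. In the knockout, Chaf1b had intensities of 1075, 1281 and 1098 in untreated cells, 1225, 1328 and 1511 at 4 h and 1052, 1136 and 1028 at 24 h. In wild-type cells, Chaf1b had intensities of 1296, 1141 and 1407 in untreated cells, 1393, 1654 and 1388 at 4 h and 902, 1154 and 1240 at 24 h. Chaf1b had the narrowest range of the 10 genes, 1.57-fold between its highest and lowest groups with all arrays, and 1.71-fold without the 5, where Rrm1 had the narrowest at 1.52-fold. Counting genes whose 3 arrays at 4 h all lay above the 3 untreated arrays gave 5 of 10 in line R, 5 in the knockout and 6 in wild-type cells, against 8.4%, 10.4% and 10.3% of all genes. Without the 5 arrays, 0 of the 10 genes were called in line R, 0 in the knockout and 2 in wild-type cells (Rrm2 and Ccne2), against 0.44%, 0.912% and 2.01% of all genes. Those called higher in wild-type cells without the 5 arrays were 1.3% of all genes.

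By 24 h none of the 10 genes differed from untreated cells past the threshold in any line. The share of all genes called was 0% in line R, 0% in the knockout and 0.0495% in wild-type cells, and 1, 1 and 2 of the 10 genes had an unadjusted p below 0.05 (limma), beside 4.56%, 5.85% and 9.59% of all genes. E2f1 in wild-type cells had the smallest adjusted p. It averaged 529 at 24 h and 830 in untreated wild-type cells, and all 3 arrays at 24 h lay below all 3 untreated arrays (log2 -0.65 ± 0.14, adjusted p = 0.109). The other E2f1 probe set above background, 1417878_at, averaged 306 and 421 in these groups, with overlapping arrays. In line R E2f1 averaged 1073 at 24 h and 1041 untreated, and in the knockout 1025 at 24 h and 885 untreated. Ccne2 in wild-type cells averaged 444 at 24 h and 183 untreated, again without overlap (log2 1.28 ± 0.43, adjusted p = 0.383). The median log2 difference of the 10 genes was -0.09 in line R, 0.15 in the knockout and -0.11 in wild-type cells.

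Between 4 h and 24 h, Rrm2, Tyms, Tk1 and Uhrf1 fell in wild-type cells, and Rrm2 and Tk1 fell in line R. In the knockout none of the 10 genes passed the test, with 4 at an unadjusted p below 0.05 (limma), beside 8.22% of all genes. These comparisons share the 4 h arrays with the comparison of 4 h against untreated cells, so they are no separate evidence of it. The median log2 difference of the 10 genes at 24 h against 4 h was -0.66 in line R, -0.35 in the knockout and -0.66 in wild-type cells, against 0.07, 0.04 and 0.04 over all genes. The 3 medians were -0.47, -0.35 and -0.61 without the 5 arrays. All genes called made up 1.57% in line R, 0.0055% in the knockout and 2.6% in wild-type cells, and those called lower 0.335% in line R and 1.49% in wild-type cells.

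Tk1 had the largest fall among the called genes in wild-type cells, averaging 2217 at 24 h and 4625 at 4 h (log2 -1.06 ± 0.21, adjusted p = 0.0111). Rrm2 averaged 5247 at 24 h and 9893 at 4 h (log2 -0.91 ± 0.16, adjusted p = 0.00714), and Uhrf1 averaged 2188 at 24 h and 3886 at 4 h (log2 -0.83 ± 0.14, adjusted p = 0.0052). Tyms averaged 162 at 24 h and 301 at 4 h (log2 -0.90 ± 0.22, adjusted p = 0.0348). Ccne1 lay just outside the threshold, with 550.1 at 24 h and 1039 at 4 h (log2 -0.92 ± 0.25, adjusted p = 0.0515). In line R, Rrm2 averaged 7934 at 24 h and 13211 at 4 h (log2 -0.74 ± 0.16, adjusted p = 0.0289), and Tk1 averaged 3086 at 24 h and 5547 at 4 h (log2 -0.85 ± 0.21, adjusted p = 0.0471). All 3 arrays at 24 h lay below all 3 at 4 h for 7 of 10 genes in line R, 5 in the knockout and 8 in wild-type cells, against 9.65%, 7.32% and 11.1% of all genes.

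Leaving out the 5 arrays, 1 gene was called lower in line R (Tk1, adjusted p = 0.0477), 0 in the knockout and the same 4 in wild-type cells, against 0.577%, 0.0715% and 2.08% of all genes called lower (1.81%, 0.308% and 3.39% in either direction). Both calls in line R were lost in each of the 6 fits that left out 1 array, with adjusted p from 0.0535 to 0.124 for Rrm2 and from 0.0715 to 0.204 for Tk1. In wild-type cells leaving out 1 array took Tk1 above 0.05 without replicate 1 of either time (0.0199 to 0.0665) and Tyms above it for 4 of 6 arrays, replicates 0 and 1 at 4 h and 1 and 2 at 24 h (0.0199 to 0.161).

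**Figure D3:**
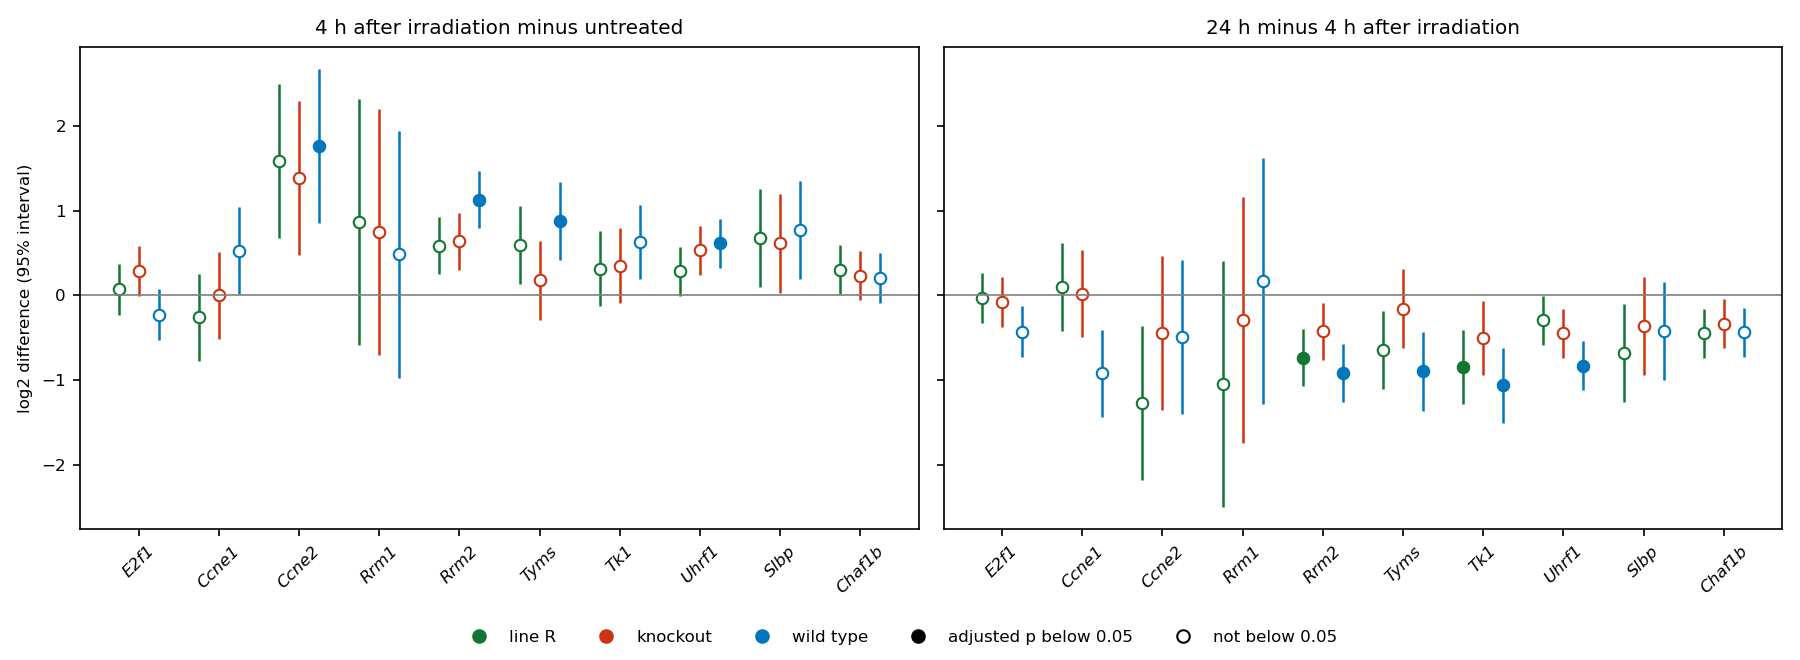
Log2 differences with 95% intervals for the 10 genes, at 4 h minus untreated (left) and 24 h minus 4 h (right), in line R, the knockout and wild-type cells, with filled points for adjusted p below 0.05. At 4 h the filled points are Ccne2, Rrm2, Tyms and Uhrf1 in wild-type cells, and in the right panel Rrm2 and Tk1 are filled in line R and in wild-type cells.

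In untreated cells, Ccne1, Rrm2 and Uhrf1 were higher in line R and in the knockout than in wild-type cells. Between line R and the knockout none of the 10 genes passed the test. Both comparisons with wild-type cells share the same wild-type arrays. Many genes differed between the lines, with 18.8% of all genes called between line R and wild-type cells and 17.6% between the knockout and wild-type cells, of which 9.39% and 7.77% were higher, so 3 of 10 genes called higher stand beside those shares.

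Ccne1 averaged 1751 in line R, 1427 in the knockout and 721 in wild-type cells, with log2 differences of 1.28 ± 0.25 for line R (adjusted p = 0.000735) and 0.98 ± 0.25 for the knockout (adjusted p = 0.00701) against wild-type cells. The second Ccne1 probe set, 1416492_at, gave 1.00 ± 0.23 and 0.93 ± 0.23. Rrm2 averaged 8809 in line R, 7437 in the knockout and 4530 in wild-type cells, with log2 differences of 0.96 ± 0.16 (adjusted p = 0.000199) and 0.72 ± 0.16 (adjusted p = 0.00313). Uhrf1 averaged 3923 in line R, 4431 in the knockout and 2533 in wild-type cells, with log2 differences of 0.63 ± 0.14 (adjusted p = 0.00244) and 0.81 ± 0.14 (adjusted p = 0.00025). On the brightest probe set of these 3 genes every untreated array of line R and of the knockout lay above every untreated wild-type array. On other probe sets, line R overlapped with wild-type cells for Uhrf1 (1415811_at) and Rrm2 (1416120_at and 1448226_at). The knockout overlapped for Rrm2 (1416120_at). Each overlap came from 1 of the 5 arrays set apart, untreated replicate 1 of line R or replicate 2 of the knockout. The other untreated arrays of these lines lay above all untreated wild-type arrays on these probe sets. Uhrf1 1415811_at averaged 1327 in line R, 1798 in the knockout and 1155 in wild-type cells. With the mean of probe sets, Rrm2 in the knockout (adjusted p = 0.074, limma) and Uhrf1 in line R (adjusted p = 0.178) missed the threshold, and the other calls held. E2f1 itself averaged 1041 in line R, 885 in the knockout and 830 in wild-type cells and did not pass the test in either comparison (adjusted p = 0.131 and 0.752).

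The 5 arrays include 1 untreated array of each line, and without them the calls against wild-type cells numbered 6 in line R and 4 in the knockout, all higher, against 11.3% and 9.98% of all genes called higher (21.7% and 20.8% in either direction). The additional genes were Tk1 in both (log2 0.73 ± 0.16 in line R, adjusted p = 0.00444, and 0.57 ± 0.16 in the knockout, adjusted p = 0.0204) and Ccne2 and Slbp in line R (adjusted p = 0.0128 and 0.0423). Leaving out untreated replicate 1 of line R alone also brought in Ccne2 (adjusted p = 0.00984) and Tk1 (adjusted p = 0.0273). Leaving out untreated wild-type replicate 0 took Ccne1 in the knockout to an adjusted p of 0.0505. Between line R and the knockout, 0 of the 10 genes were called with all arrays and 0 without the 5, against 3.79% and 3.81% of all genes, and 0 had an unadjusted p below 0.05 (limma), beside 15.5% of all genes. The 95% interval of that difference ran from -0.09 to 0.58 (log2) for Rrm2 and from -0.22 to 0.81 for Ccne1.

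**Figure D4:**
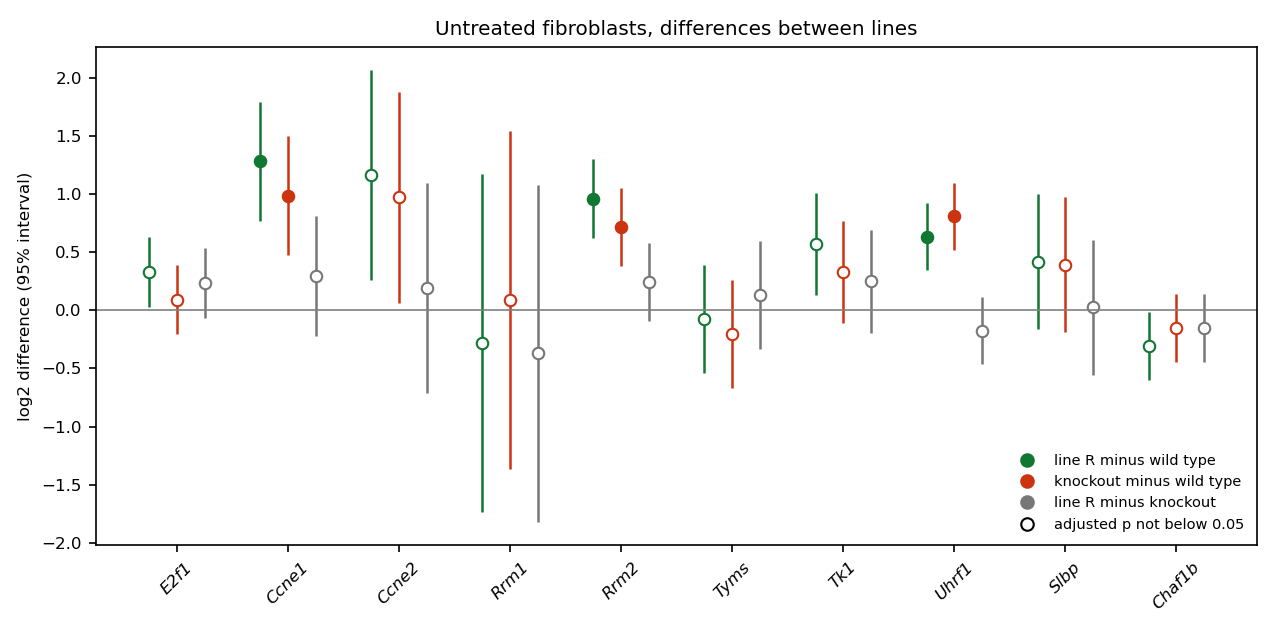
Log2 differences with 95% intervals between untreated lines for the 10 genes, with filled points for adjusted p below 0.05. Ccne1, Rrm2 and Uhrf1 are filled for line R minus wild type and for knockout minus wild type, and no point is filled for line R minus knockout.

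The response to irradiation was not shown to differ between lines for any of the 10 genes. At 4 h, 0 were called for line R minus wild type, 0 for the knockout minus wild type and 0 for line R minus the knockout, with 2, 3 and 0 at an unadjusted p below 0.05 (limma), beside 5.95%, 5.49% and 2.95% of all genes, and 0.0165%, 0.011% and 0% of all genes called. At 24 h, 0 were called in each, with 1, 1 and 0 at an unadjusted p below 0.05, beside 3.75%, 3.44% and 2.99% of all genes, and 0.0055% of all genes called in each of the comparisons. The intervals were wide. For Rrm2 at 4 h the difference in response was -0.54 (95% interval -1.02 to -0.07, adjusted p = 0.785) for line R minus wild type and -0.49 (-0.96 to -0.01, adjusted p = 0.893) for the knockout minus wild type. The smallest unadjusted p was that of E2f1 at 24 h in the knockout minus wild type, at 0.86 (0.44 to 1.29, unadjusted p = 0.000389, adjusted p = 0.589). The smallest adjusted p of any of these 6 comparisons over the alternatives was 0.296.

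Across the 9 groups, line R at 4 h was the highest group for E2f1, Ccne2, Rrm2, Tk1 and Slbp. Untreated wild-type cells were the lowest for Ccne2, Rrm2 and Slbp, and wild-type cells at 24 h were the lowest for E2f1, Ccne1, Tk1 and Uhrf1. When the 5 arrays were left out the highest group for E2f1 became line R at 24 h, and the other groups just named stayed the highest or lowest. In the order of levels most neighbours overlapped, in 8 of 8 neighbouring pairs for Ccne1 and Chaf1b, and in 4 of 8 for Rrm2, which was the most clearly stepped. Rrm2 and Slbp followed the mean of the other 9 genes most closely over the 9 group means (Pearson r of 0.977 and 0.943), and Rrm1, Chaf1b and Tyms least (0.318, 0.333 and 0.335). Leaving out the 5 arrays, r was 0.983 for Rrm2, 0.971 for Slbp, 0.267 for Tyms, 0.18 for Chaf1b and -0.011 for Rrm1, whose probe set was far lower on those arrays. The groups share lines and the points share arrays between genes, so these are descriptions. Among 10762 other genes above background, the 10 with group means most like the mean of these genes were Mis18a (r = 0.987), Arfgef1, Orc2, Heatr1, Smc2, Smarca5, Gpkow, Cdc45, Hnrnpm and Pola1 (r = 0.977). Of these, 4 (Smc2, Cdc45, Orc2 and Mis18a) were still among the 10 without the 5 arrays, where Exo1 came first (r = 0.995). Mis18a averaged 1907 in line R, 1818 in the knockout and 1353 in wild-type cells at 4 h.

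The rest of the pathway was read from 4 lists. Of all genes at 4 h, 1.51% were called higher in wild-type cells, and 0.978% in line R and 0.368% in the knockout were called in either direction. At 24 h against 4 h, 1.49% were called lower in wild-type cells and 0.335% in line R, and 0.0055% in either direction in the knockout. Of 12 other E2F and pocket protein genes, 2 rose in wild-type cells at 4 h against untreated cells, and both, E2f7 and E2f8, encode repressive E2F proteins. E2f8 averaged 541 at 4 h and 210.2 untreated (log2 1.36 ± 0.19, adjusted p = 0.00159), and E2f7 averaged 1280.2 at 4 h and 696 untreated (log2 0.88 ± 0.11, adjusted p = 0.00112). Both fell again at 24 h against 4 h in wild-type cells, by 1.55 and 1.01 on the log2 scale. In line R, 1 of 12 rose at 4 h (E2f7, log2 0.50 ± 0.11, adjusted p = 0.0424), and in the knockout 0 of 12 passed. The median log2 difference of the list at 4 h was 0.37 in line R, 0.44 in the knockout and 0.64 in wild-type cells, and without the 5 arrays 0.24, 0.26 and 0.41. In untreated cells, 1 of the 12 was called higher and 1 lower in line R, and 1 higher and 2 lower in the knockout, than in wild-type cells. Of all genes, 18.8% and 17.6% were called in either direction in these comparisons. E2f8 was higher and Tfdp2, a dimer partner of E2F proteins, was lower in both lines (Tfdp2 log2 -1.49 ± 0.18 in line R and -1.39 ± 0.18 in the knockout). E2f2 averaged 39.3 in the knockout, below background, and 123 in wild-type cells (adjusted p = 0.0275), a call that was lost without the 5 arrays (adjusted p = 0.212). The call of E2f7 in line R was lost in the same way (adjusted p = 0.0723). The difference of the E2f8 response at 4 h, knockout minus wild type, was -1.05 ± 0.28 (adjusted p = 0.465) with all arrays and -1.40 (adjusted p = 0.0171) without the 5.

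Of 25 other genes of nucleotide synthesis, 6 rose in wild-type cells at 4 h, 1 in line R and 0 in the knockout. These stand beside 1.51% of all genes called higher in wild-type cells, and 0.978% in line R and 0.368% in the knockout called in either direction. Those with the smallest p in wild-type cells were Cad and Umps, enzymes of UMP synthesis, Dctd and Rrm2b, and the one in line R was Rrm2b, the p53-inducible small subunit of ribonucleotide reductase (log2 0.64 ± 0.13, adjusted p = 0.0259, and 0.0689 without the 5 arrays). Cad averaged 2709.9 at 4 h and 1527 untreated in wild-type cells (log2 0.83 ± 0.17, adjusted p = 0.015). Of the 6, Cad and Umps remained past the threshold without the 5 arrays, a count of 2, beside 1.3% of all genes called higher. At 24 h against 4 h, 5 of 25 fell in wild-type cells, among them Umps (log2 -1.08 ± 0.19) and Cad (log2 -0.90 ± 0.17), 1 fell in line R (Mthfd1, adjusted p = 0.0487, and 0.0723 without the 5 arrays) and 0 in the knockout. Of all genes, 1.49% were called lower in wild-type cells and 0.335% in line R, and 0.0055% in either direction in the knockout. In untreated cells 5 were higher in line R and 7 higher and 1 lower in the knockout than in wild-type cells, beside 9.39% of all genes called higher in line R and 7.77% higher and 9.83% lower in the knockout. Counts without the 5 arrays were 7 higher in line R, and 8 higher and 1 lower in the knockout. Of all genes, 11.3% in line R and 9.98% in the knockout were then called higher, and 21.7% and 20.8% in either direction. Among the genes called higher was Dhodh, the mitochondrial enzyme of pyrimidine synthesis, at 747 in line R, 773 in the knockout and 359.5 in wild-type cells.

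Of 14 other genes of S phase chromatin and histone supply, 2 rose in wild-type cells at 4 h, Dnmt1, the maintenance DNA methyltransferase (log2 0.55, adjusted p = 0.00493), and Hells (log2 1.07, adjusted p = 0.0135), and 0 passed in line R or in the knockout. Of all genes, 1.51% were called higher in wild-type cells, and 0.978% in line R and 0.368% in the knockout were called in either direction. With the 5 arrays left out 4 passed in wild-type cells, with Asf1b and Ezh2 added, 0 in line R and 1 in the knockout (Hells, adjusted p = 0.0388). The shares of all genes were then 1.3% called higher in wild-type cells, and 0.44% in line R and 0.912% in the knockout in either direction. The median log2 difference of this list at 4 h was 0.44 in wild-type cells, and that of the nucleotide list 0.36, against -0.01 over all genes. At 24 h against 4 h, 4 fell in wild-type cells (Dnmt1, Ezh2, Lsm11 and Asf1b), beside 1.49% of all genes called lower. In untreated cells 3 were higher in line R and 4 in the knockout than in wild-type cells, beside 9.39% and 7.77% of all genes. Without the 5 arrays 4 were higher and 1 lower in line R and 4 higher in the knockout. Of all genes, 11.3% and 9.98% were then called higher, and 21.7% and 20.8% in either direction. Among the genes called higher was Asf1b, a histone chaperone, at 2033 in line R, 2160.5 in the knockout and 1142 in wild-type cells. Of 18 G1 cyclins, kinases and inhibitors, 1 rose in wild-type cells at 4 h (Cdkn1a) and 1 fell (Cdkn2b, log2 -0.60, adjusted p = 0.0404, and 0.0581 without the 5 arrays), and the median log2 difference of this list was 0.19, and 0.10 without the 5 arrays. Of all genes, 1.51% were called higher there and 3.25% in either direction. Without the 5 arrays 1 was higher in line R (Ccnd1), 2 in the knockout (Ccnd1 and Skp2) and 1 in wild-type cells (Cdkn1a) at 4 h. The shares of all genes called in either direction were then 0.44%, 0.912% and 2.01% in the same order of lines. In untreated cells 5 were lower in each of line R and the knockout, which were Cdkn1a, Ccnd1, Cdk4, Cdkn2c and Cdk6, beside 9.39% of all genes called lower in line R and 9.83% in the knockout. Without the 5 arrays 3 were higher (Skp2, Cdkn2d and Ccna2) and 7 lower in line R, and 2 higher (Cdkn2d and Ccna2) and 4 lower in the knockout. Of all genes, 11.3% in line R and 9.98% in the knockout were then called higher. Those called lower were 1884 and 1965 of 18193 genes, and 21.7% and 20.8% were called in either direction. Ccnd1, cyclin D1, averaged 3383 in line R, 1977 in the knockout and 6628 in wild-type cells. Ccnd1 was the only gene of the 4 lists called between line R and the knockout (log2 0.77 ± 0.18, adjusted p = 0.0168) with all arrays, and without the 5 Cdkn1a was called lower in line R as well (log2 -1.59, adjusted p = 0.0279). The Cdkn1a call in the knockout was lost when the 5 arrays were left out (adjusted p = 0.089), and so was that of Cdk4 (adjusted p = 0.0677). By 24 h against untreated cells, 0 genes of the 4 lists passed in any line (limma).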

How the data were processed

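RNA was hybridised to 27 Affymetrix mouse arrays, 3 for each of 9 groups, grouped by sample title (the description field of 6 irradiated wild-type samples says untreated). The series text calls the replicates biological and says no more of their source. The authors' deposited values are intensities on a linear scale for 45101 probe sets, with a trimmed mean of 500.003 on each array. RMA and GCRMA are named, per the submitters' processing notes, without roles, and the summary method is not known from the sources used here. Precision is set by the number of arrays.

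Values were taken to log2 with no offset and no further normalization. A gene was its brightest single-symbol probe set (18193 genes). Since the cells are female, the background level was set at the top of the 243 readings from 9 Y-linked probe sets. Differences were tested with limma 3.58.1 (R 4.3.3) with 1 mean per group, 18 residual degrees of freedom and 18 contrasts, two-sided, and Benjamini-Hochberg adjustment over all genes, calling adjusted p below 0.05. The fit was tested on simulated data. Named genes are the 10 members, Akt1, Cdkn1a, Mdm2 and Ccng1 as checks, up to 4 genes per list and contrast past the threshold by smallest p and the 10 most alike genes. The knockout value of Cdk4, the E2f8 difference in response and the genes gained without the 5 arrays were named after their values were seen.

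The members and lists were chosen with earlier results of these data known. The promoter letters were also chosen then. A first search used 8-letter E2F-type motifs, and the shorter core was added after that search had matched 1 window and the windows had been read. The cut-offs that set 5 arrays apart (-0.25 for Gapdh and 0.35 for actin, log2) were set after the ratios had been seen, because a first rule, the largest gap, had picked 1 array. The figures use matplotlib 3.10.9.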

Additional observations from a re-analysis of the deposited data

How the results depend on the processing

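With 3 arrays per group, and 1.39 prior degrees of freedom, small differences of these 10 genes were not detectable. The calls rest on the spread shared by all 9 groups: a fit on the compared arrays alone called 0 of the 10 genes in every comparison, where all arrays gave 4 (wild type, 4 h against untreated), 4 (wild type, 24 h against 4 h), 2 (line R, 24 h against 4 h), 3 (knockout against wild type) and 3 (line R against wild type). Over all genes that fit called 0, 1, 0, 1258 and 1127 in the same order, against 592, 473, 286, 3202 and 3418 with all arrays, so in the comparisons of irradiated cells hardly any gene was called by it. Of 342 recomputed counts, 299 stayed within 1.5 times the reported one and 43 did not. Most of the 342 belong to comparisons with a reported count of 0, which mostly stayed 0. The 299 therefore do not measure how stable the calls were. The number of all genes (or probe sets) called under a setting follows each count in brackets. Wild type at 4 h gave 2 with the mean of probe sets (278), 1 with each probe set by itself (363), 2 without the 5 arrays (366) and 1 without them with each probe set by itself (225). The knockout at 4 h gave 2 with an intensity trend (185, against 67) and 2 with genes above the median level (317), and line R at 4 h gave 2 (336, against 178) and 2 (618) with the same settings. Wild type at 24 h against untreated gave 1 with genes above the median level (18, against 9). At 24 h against 4 h wild type gave 2 with the mean of probe sets (194), of which Tk1 was among the 4 reported and Ccne1 was not. Line R at 24 h against 4 h gave 0 with quantile normalization (185), 0 with the mean of probe sets (136), 0 with each probe set by itself (121), 1 without the 5 arrays (330) and 0 without them with each probe set by itself (148). Line R against wild type gave 5 with an intensity trend (3576), 5 with genes above the median level (2845), 6 with equal array medians (3870), 6 without the 5 arrays (3941) and 5 without them with each probe set by itself (6032). Arrays of different groups share only a replicate number: over 108 such pairs the correlation of deviations ran from -0.645 to 0.718, and 13 of 27 arrays correlated best with their own number. The replicate block gave 1 call in line R at 4 h (Ccne2, adjusted p = 0.0455; 254 genes) and 5 in line R against wild type (3416 genes), and 19 calls over all comparisons against 16. Leaving out 1 array gave 1 to 3 calls for wild type at 4 h, 0 to 3 for line R at 4 h (3 without untreated replicate 0), 2 to 5 for wild type at 24 h against 4 h, 0 to 1 for the knockout at 24 h against 4 h (Rrm2 without replicate 0 at 24 h, adjusted p = 0.0476), 0 to 0 for line R at 24 h against 4 h, 2 to 3 for the knockout against wild type and 3 to 5 for line R against wild type. Of 272 recomputed values of the 16 calls, 197 stayed past the threshold in the same direction, 74 kept the direction and missed it, and 1 reversed, Tyms in wild-type cells at 4 h with the mean of probe sets (-0.24). The cause of the other changes was not tested. The 5 arrays and the alternatives that leave them out were chosen after seeing the data.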
